A study of Mus musculus with 6 samples.

Results

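Scavenger receptors are surface and lysosomal proteins of phagocytes that bind modified lipoproteins, bacteria, dying cells and other altered material, and most of them carry what they bind into the cell. The genes described here are Marco, Msr1 and Colec12 of the collagen-containing class A, Cd36, Scarb1 and Scarb2 of class B, Cd68 of class D, Olr1 of class E and Stab1 of class H. They were taken by symbol as members of this family, by a rule that uses no measured value. The 9 genes were nevertheless chosen with earlier results of these data known. All 9 were found among the 55401 genes of the count table. In resting brain, microglia are known for Cd68 in their lysosomes and for a low level of Msr1, whereas Marco and Olr1 are better known from macrophages outside the brain and from inflamed vessels.

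Microglia were isolated from brains of untreated MRL/lpr and MRL/mpj mice at 6 weeks of age, with 3 libraries per strain, and sequenced as RNA to compare lupus mice with their controls. The lpr mutation, carried in every cell of MRL/lpr mice, disrupts the death receptor gene Fas, and MRL/mpj mice share the MRL background without it. Cells were selected magnetically for CD11b, which also retains other myeloid cells. The labels describe removal of ribosomal RNA and the paper's methods purification of mRNA. The study gives as many mice as libraries for each strain, but neither labels nor methods tie a library to a mouse, so p-values measure the spread between these libraries, which may be in part technical.

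Each library held between 45481609 and 49846634 counts. Genes with 4 counts were more frequent than genes with 3 or 5 (1234 against 377 and 254 genes in MRL/lpr replicate 1), so 1 read pair may have been counted 4 times, and low counts may rest on fewer molecules than they show. MRL/lpr replicate 3 stood apart, with 6.38% of its counts in the gene CT010467.1. The methods describe female mice, but 4 Y chromosome genes had between 8408 and 15046 counts in each library and Xist had 8886 to 11319 counts in MRL/lpr against 27 to 38 in MRL/mpj. Each MRL/lpr library thus held both Xist and Y chromosome RNA, while MRL/mpj libraries held Y chromosome RNA with little Xist. Whether an MRL/lpr library came from 1 mouse is not known, and the source of its mixed RNA was not tested. This difference in sex-linked RNA cannot be told apart from the strain in what follows. Fas had 282 to 461 counts in MRL/lpr and 362 to 432 in MRL/mpj, and because gene counts do not separate the exons on either side of the lpr insertion, they do not check the labels. Microglial markers were abundant in each library, with a sum over 10 markers of 22376 to 25604 CPM in MRL/lpr and 26780 to 27364 CPM in MRL/mpj. Of the 10, 3 were lower in MRL/lpr and 7 were not called. The mitochondrial share of counts was 3.06% to 3.49% in MRL/lpr and 5.84% to 6.38% in MRL/mpj, and their part in the results was not tested. Unless another unit is named, levels are CPM (counts relative to library totals) scaled by TMM, a normalization that assumes most genes do not change, and changes are log2 fold changes of MRL/lpr over MRL/mpj with adjusted p-values from edgeR's quasi-likelihood test over 19554 genes.

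The reference promoters of Marco, Stab1 and Olr1 are shown because Marco and Stab1 carried the clearest differences between the strains and Olr1 differed without passing the test. Each is the 250 bases before the RefSeq start on GRCm38.p6, read 5′ to 3′ on the minus strand. They come from the C57BL/6J reference and not from MRL mice. Capitals mark matches on either strand to the PU.1 core GAGGAA, to the AP-1 motif TGANTCA or to the interferon-stimulated response element, and no 2 matches overlap in these windows.
Marco (chr1:120505025-120505274): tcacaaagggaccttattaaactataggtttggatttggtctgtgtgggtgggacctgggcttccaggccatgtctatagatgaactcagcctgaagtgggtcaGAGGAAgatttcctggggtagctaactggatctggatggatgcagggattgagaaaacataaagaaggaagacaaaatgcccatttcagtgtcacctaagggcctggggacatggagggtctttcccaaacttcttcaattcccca
Stab1 (chr14:31168642-31168891): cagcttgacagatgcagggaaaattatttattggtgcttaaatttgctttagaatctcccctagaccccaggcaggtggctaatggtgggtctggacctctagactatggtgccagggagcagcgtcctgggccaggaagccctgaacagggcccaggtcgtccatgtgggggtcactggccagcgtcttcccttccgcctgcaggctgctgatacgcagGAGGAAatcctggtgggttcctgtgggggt
Olr1 (chr6:129507166-129507415): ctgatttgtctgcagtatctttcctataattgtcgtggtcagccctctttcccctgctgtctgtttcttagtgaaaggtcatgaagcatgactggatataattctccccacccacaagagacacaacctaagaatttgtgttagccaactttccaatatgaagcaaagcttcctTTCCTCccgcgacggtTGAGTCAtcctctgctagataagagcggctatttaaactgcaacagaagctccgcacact
PU.1 and AP-1 are transcription factors of macrophages. The PU.1 letters began 146 bases before the start of Marco, 30 bases before that of Stab1 and 76 bases before that of Olr1, and an AP-1 match stood 60 bases before the start of Olr1. The table held 6 of the 9 genes and lacked Msr1, Scarb1 and Colec12. Of those not printed, Cd68 had both the PU.1 and the AP-1 letters, while Cd36 and Scarb2 had none of the 3 motifs. Scarb2, like Olr1, did not overlap between the strains without passing the test, so the printed windows, which all hold the PU.1 letters, are a choice. Among 32851 promoter windows of this length, 23.3% held the PU.1 letters, 6.75% the AP-1 letters and 2.98% the interferon letters. A match is a string of letters and not a measured binding site, and the motifs were chosen with the values known.

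All 9 genes had enough counts to be tested, Marco through the MRL/lpr libraries alone. At an adjusted p under 0.05, Marco and Msr1 rose in MRL/lpr and Stab1 and Colec12 fell, against 20.2% of all tested genes (11.1% higher and 9.06% lower). Counts of called genes in the gene and marker lists are to be read beside the same shares. When a log2 fold change of at least 1 in size was also required, Marco remained, where 4.67% of tested genes were higher and 3.66% lower. The levels of the 2 strains did not overlap in 6 of the 9, namely Marco, Msr1 and Olr1 on the higher side and Stab1, Scarb2 and Colec12 on the lower side, against 39.0% of tested genes (19.6% higher and 19.4% lower). DESeq2 called 2 genes higher and 2 lower, with 18.7% of its tested genes called. The median log2 fold change of the 9 was 0.24, and that of all tested genes was -0.01. In bulk RNA, fewer cells of a type and less RNA per cell cannot be told apart. Without MRL/lpr replicate 3, Marco (5.41), Msr1 (0.92) and Stab1 (-0.82) kept their calls and Colec12 (-0.76) lost its call.

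**Figure D1:**
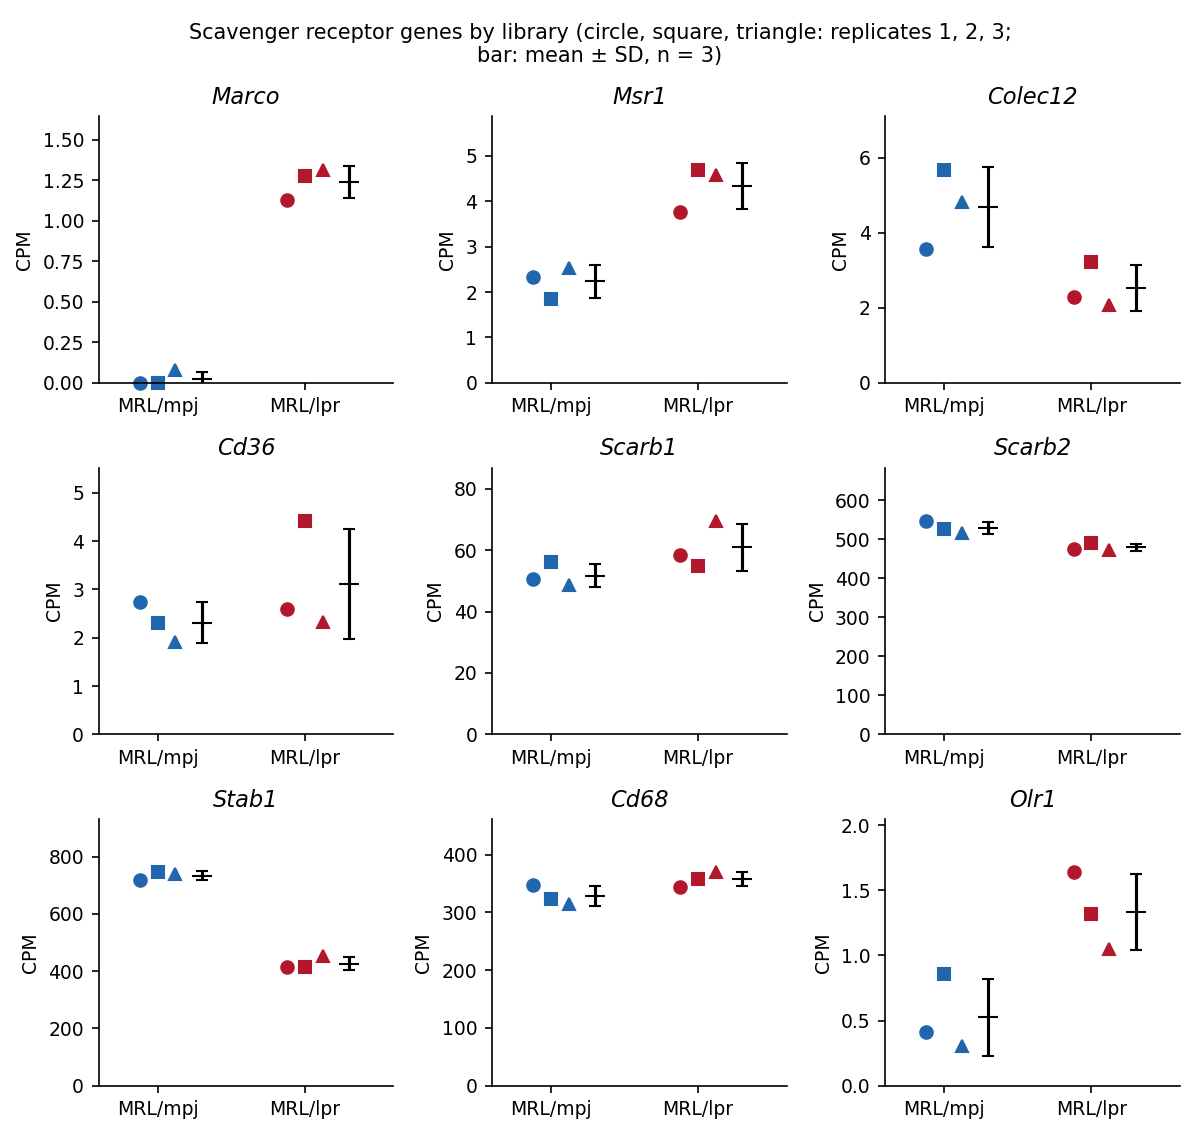
CPM of each scavenger receptor gene in each library, by strain, with replicates 1, 2 and 3 as circle, square and triangle and a bar for the mean ± SD (n = 3). Marco is near 0 in MRL/mpj, Stab1 lies between 717 and 745 CPM there against 413 to 453 CPM in MRL/lpr, and Cd36, Scarb1 and Cd68 overlap between the strains.

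Per length, the 9 genes fell into an abundant and a scarce group. The deposited FPKM values were not scaled by TMM here and serve to order genes, not to compare strains. On FPKM with a pseudocount of 0.1, the median log2 fold change of all tested genes was -0.12, against -0.01 in the main fit. In the deposited FPKM values, Cd68 was highest at 243 ± 4.92 FPKM in MRL/lpr and 243 ± 12.6 FPKM in MRL/mpj (SD, n = 3 each). Scarb2 followed at 65.2 ± 3.0 and 78.5 ± 2.25 FPKM, then Stab1 at 35.4 ± 0.740 and 66.4 ± 1.38 FPKM and Scarb1 at 6.10 ± 0.572 and 5.65 ± 0.422 FPKM. These 4 kept that order without overlap between neighbours in either strain. The other 5 were at or below 1.07 FPKM in each library. In the MRL/lpr libraries Cd36, Msr1 and Marco averaged 0.740, 0.580 and 0.543 FPKM with overlapping ranges, and Olr1 and Colec12 followed at 0.317 and 0.243 FPKM, also overlapping. In the MRL/mpj libraries the order was Cd36, Colec12, Msr1, Olr1 and Marco, at 0.590, 0.497, 0.327, 0.133 and 0.010 FPKM. There Cd36 and Colec12 overlapped, while Colec12, Msr1, Olr1 and Marco each lay above the next in every library, Colec12 and Msr1 by 0.38 against 0.37 FPKM at the closest. Ranked by TPM, computed here from the counts and GENCODE lengths, the 9 genes stood at the same 9 ranks in each strain, but Colec12 and Msr1 then overlapped in MRL/mpj.

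**Figure D2:**
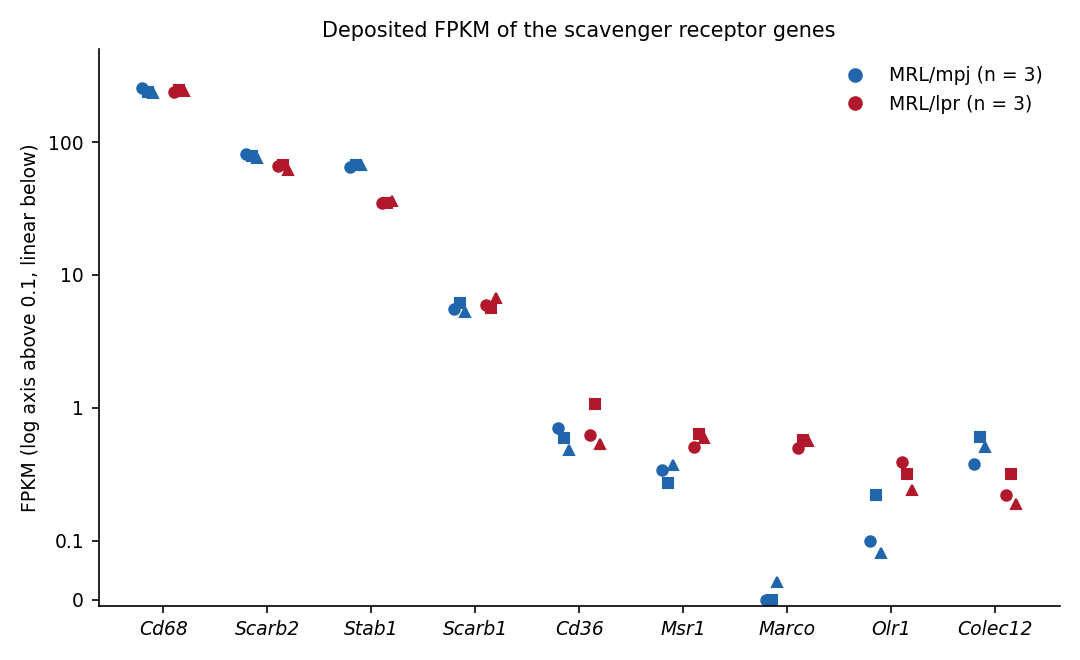
Deposited FPKM of each gene in each library, on an axis that is logarithmic above 0.1 and linear below, with MRL/mpj in blue and MRL/lpr in red (n = 3 each). Cd68, Scarb2, Stab1 and Scarb1 lie above 5 FPKM in each library, and the other 5 genes at or below 1.07 FPKM.

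Marco, a trimeric class A receptor that binds bacteria and particles through a cysteine-rich domain, had the largest fitted fold change of the 9. The gene (ENSMUSG00000026390, chr1:120474538-120505024, minus strand, GRCm38) had 53, 60 and 55 counts in MRL/lpr and 0, 0 and 4 counts in MRL/mpj. Its level was 1.24 ± 0.0992 CPM (SD, n = 3) against a single MRL/mpj library at 0.0769 CPM. The ratio of summed CPM was 47.4, with a 95% exact interval of 18.2 to 176 that covers counting error only, and of 8.06 to 1917 if 4 counts stand for 1 read pair. In edgeR's test the fitted log2 fold change was 5.44 with a standard error of 0.99 and an adjusted p of 0.00409. It ran from 4.90 to 8.88 when 1 library was left out, the highest without MRL/mpj replicate 3, where both remaining MRL/mpj libraries are at 0 and the value is no bound. Marco was called in each of the 17 other settings tried. With FPKM and a pseudocount of 1, which compresses low genes, it was 0.61.

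Msr1, the class A receptor for acetylated lipoproteins, amyloid and bacterial lipids, had 177, 221 and 191 counts in MRL/lpr and 120, 92 and 132 in MRL/mpj. Each MRL/lpr library lay above each MRL/mpj library, at 4.34 ± 0.505 against 2.24 ± 0.358 CPM (SD, n = 3 each). Msr1 thus rose by 0.96 on the log2 scale, with a standard error of 0.24 and an adjusted p of 0.0187 in edgeR's test. The call was lost without MRL/lpr replicate 2 (adjusted p = 0.0638 from edgeR), without MRL/mpj replicate 1 (0.0545) and without MRL/mpj replicate 2 (0.0721).

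Colec12, a class A collectin with a lectin domain known from vascular cells, went the other way. Its gene on chromosome 18 had 107, 152 and 87 counts in MRL/lpr and 183, 284 and 250 in MRL/mpj, or 2.53 ± 0.614 against 4.68 ± 1.07 CPM (SD, n = 3 each). The groups did not overlap, and edgeR's test gave a fold change of -0.89 on the log2 scale with a standard error of 0.27 and an adjusted p of 0.0468. The call was lost in 4 of the 6 fits without 1 library, namely those without MRL/lpr replicates 1 and 3 and MRL/mpj replicates 2 and 3, with adjusted p-values from edgeR of 0.129, 0.106, 0.171 and 0.122. It was also lost with a block on the replicate number (adjusted p = 0.0528). Within each library the count of Msr1 was 1.77 ± 0.384 times that of Colec12 in MRL/lpr and 0.503 ± 0.167 times in MRL/mpj (SD, n = 3 each), without overlap. Of 8 listed markers of mural cells and fibroblasts, 4 were lower and 4 not called. Their log2 fold changes ran from -2.13 for Col3a1 to 0.46 for Kcnj8 (the lowest and the highest, named for that reason). Their sum was 171 to 225 CPM in MRL/lpr against 251 to 262 CPM in MRL/mpj. The 8 endothelial markers summed to 2109 to 2468 against 1907 to 1975 CPM, with 1 higher and 7 not called. The part of other cells in the Colec12 value was not tested.

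Stab1, a large receptor of tissue macrophages and sinusoidal endothelium that takes up modified lipoproteins and matrix proteins, had the smallest p-value of the 9. The gene (ENSMUSG00000042286, chr14:31139013-31168641, minus strand, GRCm38) had 19455, 19456 and 18936 counts in MRL/lpr and 36856, 37249 and 38484 counts in MRL/mpj. Replicates lay close together, at 427 ± 22.8 against 734 ± 14.8 CPM (SD, n = 3 each), and the strains were far apart. Its level fell by 41.9%, a log2 fold change of -0.78 with a 95% interval of -0.92 to -0.64, a standard error of 0.06 and an adjusted p of 2.44e-05 in edgeR's test. Leaving out 1 library moved the fold change between -0.82 and -0.76 with each call kept. The fall did not reach a log2 fold change of 1. Stab1 overlaps Nt5dc2 on the opposite strand over 112 exonic bases, and Nt5dc2 itself had 915 to 1225 counts over its whole length.

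Stab1 is also expressed by macrophages at the borders of the brain. The 10 listed markers of these cells summed to 63.0 to 66.5 CPM in MRL/lpr and 61.0 to 67.6 CPM in MRL/mpj. Of them, 1 was higher (Siglec1, 3.14 on the log2 scale) and 2 were lower (Cbr2, -1.68, and Mrc1, -0.39). The sum thus joins markers that changed in opposite directions. The called markers were named after their values were seen. Choroid plexus markers summed to 350 to 361 CPM against 1050 to 1133 CPM, with all 5 lower in MRL/lpr. Their part in the Stab1 value was not tested.

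Cd68, a heavily glycosylated lysosomal membrane protein widely used as a phagocyte marker, did not pass the test. It had 16187, 16877 and 15430 counts in MRL/lpr and 17849, 16116 and 16356 in MRL/mpj, or 357 ± 12.5 and 328 ± 17.2 CPM (SD, n = 3 each). The 2 groups overlapped. Cd68 had a log2 fold change of 0.12 (95% interval -0.02 to 0.27, adjusted p = 0.227 from edgeR), and one of -0.00048 where only library size set the scale. Because ratios within a library do not depend on that scaling, they were added after the values were seen. The count of Stab1 was 1.20, 1.15 and 1.23 times that of Cd68 in MRL/lpr and 2.06, 2.31 and 2.35 times in MRL/mpj. These ratios did not overlap.

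**Figure D3:**
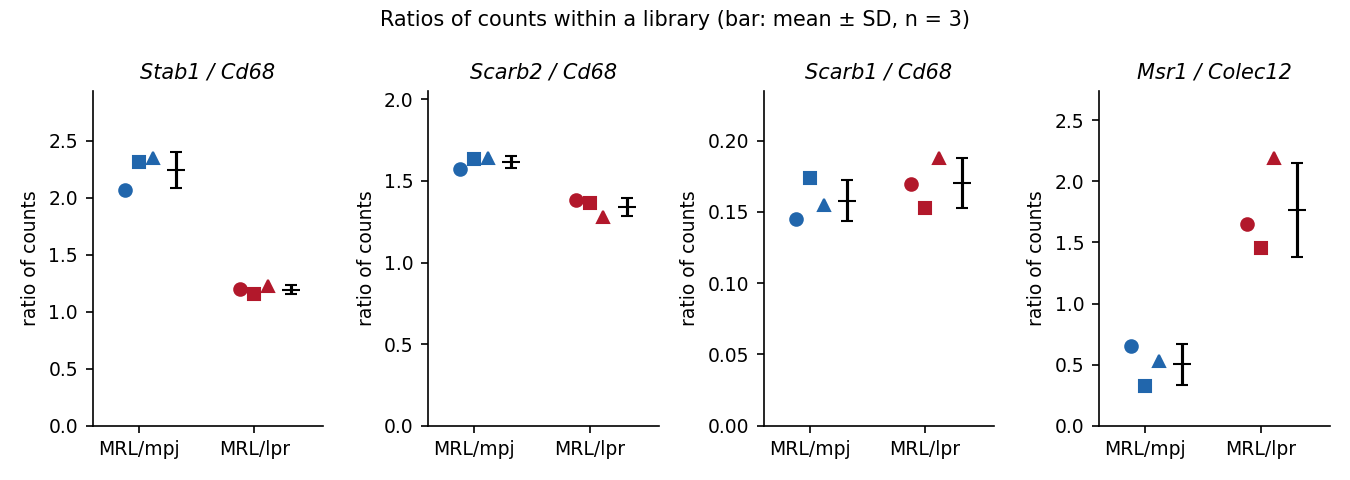
Ratio of the counts of 2 genes within each library, by strain, with replicates 1, 2 and 3 as circle, square and triangle and a bar for the mean ± SD (n = 3). The ratios of Stab1 to Cd68, Scarb2 to Cd68 and Msr1 to Colec12 do not overlap between the strains, and that of Scarb1 to Cd68 does.

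Scarb2 is a class B protein of the lysosomal membrane that works inside the cell. It had 22344, 23042 and 19741 counts in MRL/lpr and 28107, 26327 and 26881 in MRL/mpj. In CPM it was 479 ± 9.19 against 530 ± 15.4 (SD, n = 3 each), without overlap. For Scarb2 the log2 fold change was -0.15 (95% interval -0.27 to -0.02, adjusted p = 0.104 from edgeR). Scaled by library size alone it passed the test, at -0.27 (adjusted p = 0.0160), where the median of all tested genes also moved, from -0.01 to -0.13. Relative to the count of Cd68, Scarb2 was 1.34 ± 0.0545 in MRL/lpr and 1.62 ± 0.0372 in MRL/mpj (SD, n = 3 each). Of 12 lysosomal genes listed with Scarb2, 3 were lower and 9 not called, where 9.06% of all tested genes were lower. Their median log2 fold change was -0.10. Scaled by library size alone, 6 of them were lower.

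Scarb1, the class B receptor for high-density lipoprotein, had 2741, 2581 and 2904 counts in MRL/lpr and 2593, 2799 and 2528 in MRL/mpj. The groups overlapped, at 60.9 ± 7.66 and 51.7 ± 3.85 CPM (SD, n = 3 each). The log2 fold change was 0.24 (95% interval -0.00 to 0.48, adjusted p = 0.164 from edgeR). Cd36, the class B receptor for fatty acids, oxidized lipoprotein and thrombospondin, had 122, 208 and 97 counts against 141, 115 and 99. MRL/lpr replicate 2 was the highest library, at 4.42 CPM against at most 2.74 CPM elsewhere. The log2 fold change was 0.43 (95% interval -0.27 to 1.13, adjusted p = 0.402 from edgeR), and 0.09 without that replicate. No difference in Cd36 was detected, and the interval leaves room for a change of more than a log2 unit.

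Olr1, the lectin-like class E receptor for oxidized lipoprotein (chr6:129485244-129507165, minus strand, GRCm38), was scarce and variable. It had 77, 62 and 44 counts in MRL/lpr and 21, 43 and 16 in MRL/mpj, or 1.34 ± 0.293 against 0.525 ± 0.294 CPM (SD, n = 3 each). Each MRL/lpr library lay above each MRL/mpj library, though MRL/lpr replicate 3 and MRL/mpj replicate 2 were close at 1.05 and 0.860 CPM. Olr1 had a log2 fold change of 1.34 with a standard error of 0.50 and an adjusted p of 0.0938 in edgeR's test. It passed the test in 1 of the 16 settings that gave a value, without MRL/mpj replicate 2, at 1.89 (adjusted p = 0.0427). In the MRL/mpj libraries the SD was 56.0% of the mean for Olr1, against 2.02% for Stab1 and 2.91% for Scarb2, which are abundant. Among the other scarce genes there it was 173% for Marco, 22.8% for Colec12, 18.2% for Cd36 and 16.0% for Msr1. In the MRL/lpr libraries it was 21.9% for Olr1.

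**Figure D4:**
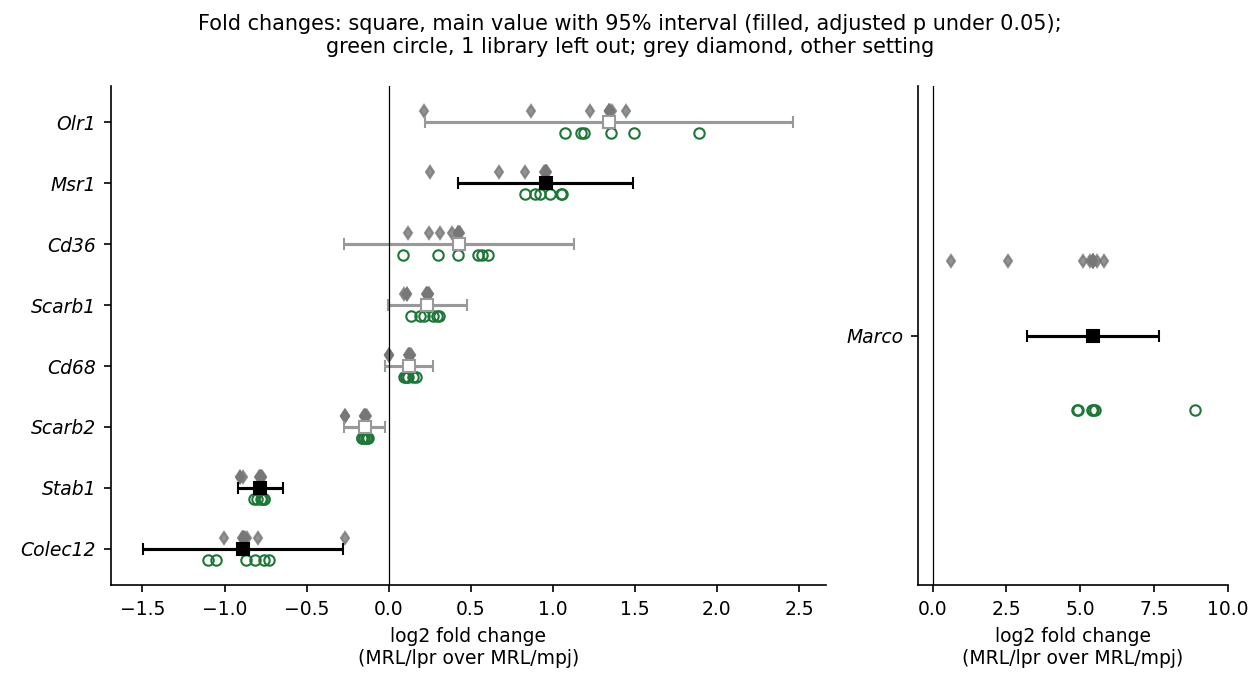
Log2 fold change of each gene with its 95% interval (square, filled at an adjusted p under 0.05), with the values when 1 library is left out (green circles) and under the other settings (grey diamonds, where values from FPKM depend on the pseudocount). Marco has its own panel, and Msr1, Stab1, Colec12 and Marco are filled.

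The gate could also hold blood-derived myeloid cells. The 8 monocyte markers summed to 87.0 to 98.9 CPM in MRL/lpr and 89.2 to 96.1 CPM in MRL/mpj. Of them, 4 were higher and 1 was lower, and their median log2 fold change was 0.78. The lower marker, Chil3, named for that reason, averaged 16.1 CPM in MRL/lpr and 48.5 CPM in MRL/mpj. The monocyte sum thus joins markers that changed in opposite directions. Neutrophil markers summed to 585 to 663 against 456 to 515 CPM, with 3 of 8 higher and 5 not called. Dendritic cell markers summed to 22.3 to 25.5 against 19.1 to 23.9 CPM, and edgeR called 0 of these 6 markers, as did DESeq2, with 1 higher and 2 lower at an unadjusted p under 0.05 in edgeR. No marker of these lists was at 3 or fewer counts in every library. Their part in the values of Marco, Msr1 and Olr1 was not tested.

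Among 15 receptors that the consensus nomenclature also places in scavenger receptor classes, 12 had enough counts to be tested. Of these, 3 were higher and 1 lower, where 11.1% of all tested genes were higher and 9.06% lower. On the log2 scale Clec7a, which binds beta-glucans, rose by 1.78 (adjusted p = 6.05e-05 from edgeR). Cxcl16, a membrane-bound chemokine that also binds oxidized lipoprotein, rose by 1.06 (adjusted p = 1.55e-05 from edgeR). The hyaluronan receptor Cd44 rose by 0.74, and the mannose receptor Mrc1 fell by 0.39, a call lost in each of the 6 fits without 1 library. Both are named after their values were seen. Scaled by library size alone, 3 were higher and 3 lower. The median log2 fold change of the 12 was 0.26.

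Of 15 genes that carry, store or export lipoprotein lipid, 4 were higher and 7 lower, and the median log2 fold change was -0.21. Among all tested genes, 11.1% were higher and 9.06% lower. Apoe, the main apolipoprotein of the brain, had 23567, 19125 and 24506 counts in MRL/lpr and 78443, 74659 and 59889 in MRL/mpj. It fell by 1.48 (standard error 0.16, adjusted p = 0.000783 from edgeR). Soat1, which esterifies cholesterol for storage, fell by 1.05 (standard error 0.08, adjusted p = 2.51e-05 from edgeR). Neither lost its call when 1 library was left out. Apoe is also made by astrocytes, whose 6 markers summed to 105 to 148 CPM in MRL/lpr and 181 to 186 CPM in MRL/mpj, with 1 lower and 5 not called. Slc1a3, the one called lower and named for that reason, averaged 66.1 CPM in MRL/lpr and 130.1 CPM in MRL/mpj, while the median log2 fold change of the 6 was 0.04, and their part was not tested. Of 14 co-receptors, kinases and transcription factors tied to scavenger receptors, 6 were higher and 8 not called, where 11.1% of all tested genes were higher. Their median was 0.26, and the called genes stayed under a log2 fold change of 1.

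**Figure D5:**
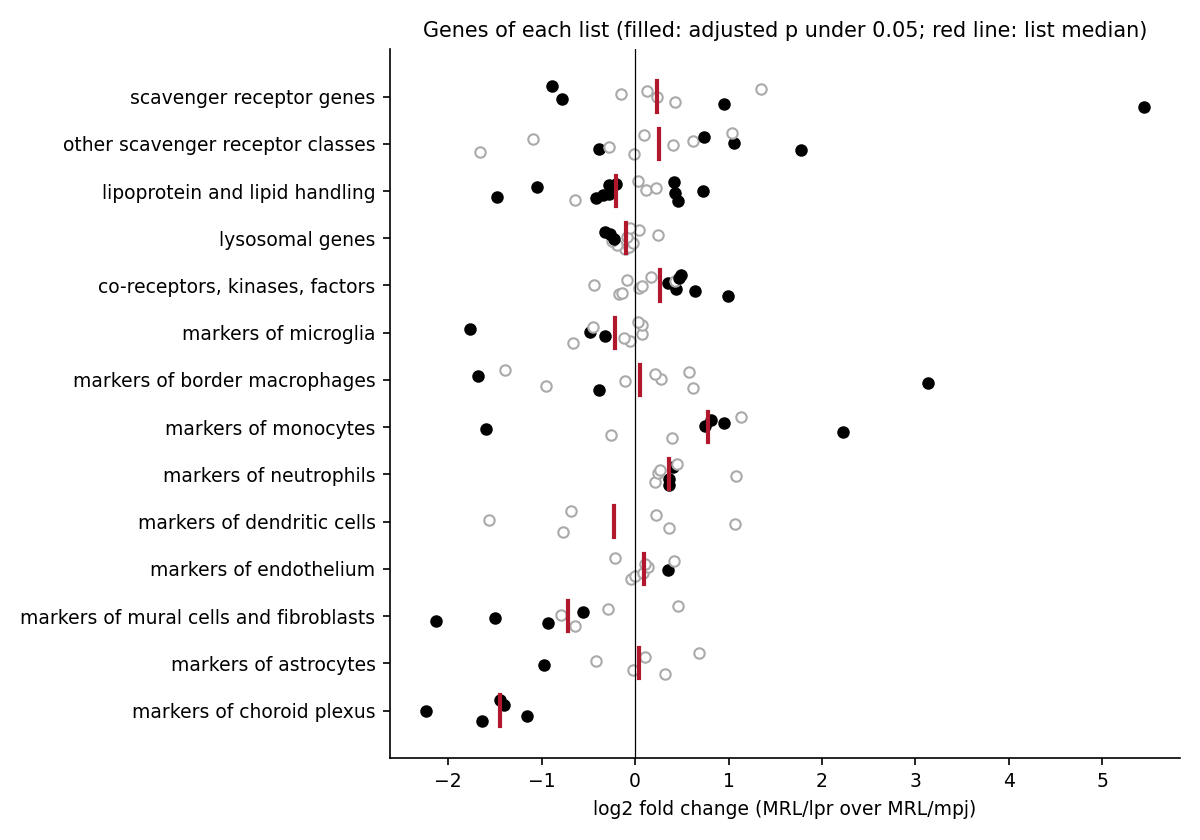
Log2 fold change of each tested gene in the scavenger receptor list, in the 4 related lists and in the 9 marker lists, filled at an adjusted p under 0.05, with a red line at each median. Scavenger receptor genes lie on both sides of 0, and all 5 choroid plexus markers lie below it.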

How the data were processed

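RNA of CD11b-selected brain cells was sequenced in 3 libraries of each strain. The submitters' processing notes name cutadapt 1.9.3, HISAT2 2.0.4, Cufflinks, Cuffdiff 2.2.1 and GRCm38, and the counting tool, its strand setting and the annotation are not given in the sources used here. The authors deposited raw counts per gene for the 6 libraries, and FPKM values per library for 30602 genes. Symbols, lengths and positions came from GENCODE M21 (GRCm38), which matched 55141 of 55401 identifiers.

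Counts were filtered with filterByExpr (minimum count 10, minimum total 15), scaled by TMM and tested with edgeR 4.0.16 in R 4.3.3, without covariates, by the quasi-likelihood test with robust dispersions and Benjamini-Hochberg adjustment. Calls were made at an adjusted p under 0.05, and the study's methods also ask for a log2 fold change of 1 or more in size. The standard error is the fold change divided by the root of F. The fit was first tested on simulated data, and the outcome of that test is not given here. With 3 libraries against 3, an exact permutation test could not go below 0.1, and none was used.

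The alternatives were DESeq2 1.42.0, other scalings and filters, dispersions that are not robust, counts divided by 4, glmTreat, a replicate block, limma 3.58.1 on log2(FPKM + 0.1) and log2(FPKM + 1), and each library left out. The 9 genes, the lists and the settings were chosen with earlier results of these data known. Named besides the 9 are genes of the related lists called with a fold change of 2 or more. Marker lists are given as summaries, and markers that pass this rule are not all named. Other named list genes are said to be chosen later. Correlations between the 9 genes are not given, because the 6 libraries fall into 2 strains.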

Additional observations from a re-analysis of the deposited data

How the results depend on the processing

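The signs of the 9 fold changes held in each alternative tried, except that of Cd68 with scaling by library size only (-0.00048). Marco was higher in each. Stab1 was lower in each, and lost its call only in the test against a log2 fold change of 1 (-0.78). Msr1 (0.96) and Colec12 (-0.89) also lost theirs in that test, which left 1 gene higher and 0 lower. With limma on FPKM, Msr1 lost its call at a pseudocount of 0.1 (0.68, leaving 1 gene higher), Colec12 at 0.1 and 1 (-0.80 and -0.27), and Scarb2 gained one at both (-0.27 and -0.26), as with scaling by library size only (-0.27). Colec12 also lost its call with dispersions that are not robust (-0.89), leaving 1 gene lower. Over all genes, the main fit called 3950 of 19554, and the test against a log2 fold change of 1 called 616. Fits without 1 library called 2803 to 4334 of 20436 to 20486 genes, the most without MRL/lpr replicate 3. Without 1 library, the higher genes numbered 1 to 2 (1 without MRL/lpr replicate 2 or MRL/mpj replicate 1) and the lower genes 1 to 2 (1 without MRL/lpr replicates 1 or 3 or MRL/mpj replicates 2 or 3), and fold changes ran from 0.83 to 1.05 for Msr1, 1.07 to 1.89 for Olr1 and -1.10 to -0.73 for Colec12.

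Same-numbered libraries did not deviate together (r of -0.04, -0.02 and -0.03 across genes), and the labels give no shared litter or day. With the number as a block, Colec12 lost its call (-0.89, leaving 1 gene lower), and the other scavenger receptor classes had 0 lower genes. Over all genes, that fit called 3063 of 19554, against 3950 without the block.

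In those classes, 1 gene was higher and 0 lower in the test against the fold minimum. The lower genes numbered 3 with scaling by library size only, 2 with the stricter filter, 2 with counts divided by 4, and 3 and 2 with limma on FPKM, and 0 in each fit without 1 library. In the lipid list, 0 were higher and 0 lower against the fold minimum, 2 were higher with limma at either pseudocount, and without 1 library 2 to 4 were higher and 3 to 6 lower (2 higher without MRL/mpj replicates 1 or 3, and 3 or 4 lower without any library but MRL/lpr replicate 3). In the lysosomal list, 1 was higher with the stricter filter and with counts divided by 4, and 6 were lower with scaling by library size only and 0 against the fold minimum. Without 1 library, 0 to 1 were higher and 1 to 5 lower (1 higher and 5 lower without MRL/lpr replicate 3, and 1 lower without MRL/mpj replicates 1 or 2). Of the co-receptors, kinases and transcription factors, 0 were higher against the fold minimum and 3 with limma at either pseudocount. Olr1 had too few counts for the stricter filter. At a mean of 5 CPM or less, depth and replicate spread limit Marco, Msr1, Cd36, Olr1 and Colec12.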
